A study of Mus musculus with 58 samples.

Results

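Organoids kept for 96 h under combined Wnt, Notch and EGFR inhibition (IDE, 3 libraries) were compared with organoids in control medium (ENR, 3 libraries). These were all whole-organoid libraries that carry those titles, 6 of the 58 samples of the series. All were mouse small-intestinal organoids of the Bl/6 strain, and gene expression was measured by CEL-seq, which counts transcripts at their 3′ ends. ENR is the usual small-intestinal organoid medium with EGF, Noggin and R-spondin, which keeps Lgr5+ stem cells dividing. The inhibitors and their doses were not named in the labels used here. The organoid line, the number of animals and whether replicates came from separate cultures were not stated, so p-values measure the spread between these libraries, which may be technical. Organoids hold epithelium alone, without the stroma, nerves and immune cells of the gut wall.

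The intestinal epithelium is renewed by stem cells at the crypt base. Wnt signals keep these cells in place, EGF signals through the Ras/ERK cascade drive their division, and Notch signals turn their daughters towards absorptive rather than secretory fates. Secretory daughters become goblet, Paneth, tuft or enteroendocrine cells, and the last of these start from a burst of the transcription factor Neurog3 and end as rare cells that store hormones in dense-core granules. The series asks whether stem cells made quiescent by blocking EGFR can be steered into the enteroendocrine lineage.

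Of the 8135 genes tested at 96 h, 4075 differed between IDE and ENR organoids (edgeR quasi-likelihood test, Benjamini-Hochberg adjusted p below 0.05), which is 50.1% of all genes. IDE organoids were higher for 2067 genes (25.4%) and lower for 2008 (24.7%), and the median log2 fold change over all genes was -0.02. More than 4-fold differences were found for 466 of the higher and 376 of the lower genes. Library totals were 1425565 to 1738425 counts in ENR and 423265 to 1187242 in IDE. Replicates correlated with r of 0.976 to 0.977 across genes in ENR and 0.933 to 0.949 in IDE. The control and triple-inhibited libraries belonged to different numbered library sets (3 and 4), so set and treatment cannot be told apart in this comparison. In whole organoids, fewer cells of a type and less RNA per cell cannot be told apart either. Levels below are in CPM, counts scaled to the library's total over the genes tested times its TMM factor, listed for replicates 1, 2 and 3. The words "rose" and "fell" are used of genes past the adjusted threshold. Where the groups are said to be apart, the background is that all IDE libraries lay above all ENR libraries for 28.2% of genes and below them for 30.4%.

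Hormone genes rose in the triple-inhibited organoids. Of 18 hormone genes followed, 9 passed the filter on low counts, 8 of them rose and 1 fell, with a median log2 fold change of 3.30. Members low in ENR could pass this filter through a treated group alone, which tilts the tested members towards rises. The 7 hormone genes also tested at 6 h gave 6 rises and 1 fall at 96 h. Gip (chromosome 11, chr11:96024545-96030831), the incretin of K cells, was at 22.1, 16.2 and 24.8 CPM in the ENR libraries and 753, 962 and 839.5 CPM in the IDE libraries (log2 fold change 5.32, SE 0.20, adjusted p = 1.03e-18). Sst (chromosome 16, chr16:23889573-23890958), which encodes the inhibitory hormone somatostatin of D cells, was at 9.96, 11.95 and 20.8 CPM in ENR and 585, 555 and 518 CPM in IDE (log2 fold change 5.23, SE 0.26, adjusted p = 2.85e-16). For both genes every IDE library lay far above every ENR library.

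The other tested hormones rose by smaller log2 steps, apart from Adm, which fell. Ghrl, the precursor of the appetite hormone ghrelin, went from 17.1, 9.84 and 12.7 CPM to 132, 156 and 95.3 CPM (log2 fold change 3.30, SE 0.29, adjusted p = 6.96e-11), and Gcg, from which GLP-1 is made, from 9.96, 4.22 and 5.19 CPM to 62.5, 105.0 and 74.7 CPM (log2 fold change 3.67, SE 0.37, adjusted p = 1.74e-09). Tac1, the substance P precursor of enterochromaffin cells, read 35.6, 15.5 and 24.8 CPM in ENR and 165, 222 and 191 CPM in IDE (log2 fold change 2.93, SE 0.27, adjusted p = 2.51e-10). None of these 3 genes had overlapping groups. Sct, which encodes secretin, rose from a mean of 2.54 to 23.9 CPM (log2 fold change 3.12), and Ucn3, a urocortin, from 2 counts over the 3 ENR libraries to 33 over the IDE libraries, a depth-corrected ratio of 39.1 (95% interval 9.99 to 336). Cck, the gallbladder-contracting hormone of I cells, showed the smallest rise of the list, with 71.9, 59.8 and 92.3 CPM in ENR and 210.1, 348 and 175 CPM in IDE (log2 fold change 1.74, SE 0.26, adjusted p = 1.58e-06). The exception was Adm, which encodes the vasoactive peptide adrenomedullin and is also made outside endocrine cells. It fell from 32.7, 42.2 and 51.4 CPM to 11.4, 2.97 and 7.73 CPM (log2 fold change -2.69, SE 0.44, adjusted p = 8.59e-06).

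Among the hormone genes that did not reach the filter, Pyy had 1 count over the ENR libraries and 0 over the IDE libraries, and Nts, Nmu and Penk had 0 counts in all 6 libraries. Insl5, a hormone known mainly from the colon, had 0 counts in ENR and 2, 5 and 1 in IDE. Iapp had 9 and 12 counts, and Vip and Npy were not listed in the count files of these libraries. The counts of these genes were too low for a comparison.

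**Figure D1:**
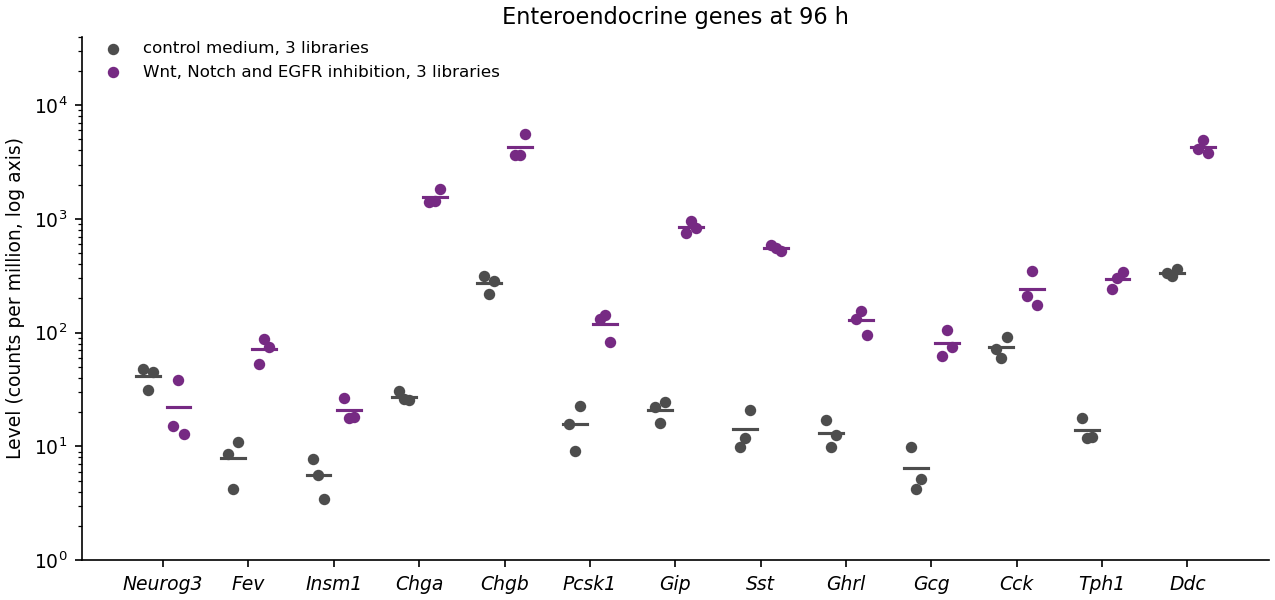
Levels of 13 enteroendocrine genes in CPM (log axis) in each of the 3 control and 3 triple-inhibited libraries at 96 h; points are libraries and bars are group means. Chga, Chgb, Gip, Sst, Tph1 and Ddc stood at least 1 order of magnitude apart, while the Neurog3 groups overlapped.

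The granule proteins that endocrine cells share rose too: all 10 of the 10 tested members, of 18 followed, were higher in IDE, with a median log2 fold change of 2.90. All 7 granule genes also tested at 6 h rose at 96 h. Chga (chromosome 12, chr12:102554969-102565028), chromogranin A and the usual marker of the whole lineage, was at 30.6, 26.02 and 25.4 CPM in ENR and 1404, 1436 and 1821 CPM in IDE (log2 fold change 5.82, SE 0.24, adjusted p = 2.96e-18). Chgb, chromogranin B, was at 314, 217 and 284 CPM and 3645, 3662 and 5632 CPM (log2 fold change 3.99, SE 0.22, adjusted p = 1.4e-15). Both pairs of groups were fully apart. Pcsk1, the convertase that cuts prohormones, rose from 15.7, 9.14 and 22.5 CPM to 132, 144 and 82.4 CPM (log2 fold change 2.92, SE 0.27, adjusted p = 2.45e-10). Ptprn and Ptprn2, the phosphatase-like proteins of dense-core granules, had log2 fold changes of 3.94 and 3.65. The peptide-trimming carboxypeptidase Cpe (2.28), the amidating enzyme Pam (1.48) and the granin Scg2 (2.88) rose as well, and so did Fam183b (2.83). Vgf, a granin-like precursor, had groups that overlapped (0.711, 4.92 and 2.31 CPM against 11.4, 15.8 and 2.58 CPM, log2 fold change 2.05), and its adjusted p of 0.00649 became 0.173 without IDE replicate 2.

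The promoters of 3 genes that rose are shown because they hold the same letters, those of the cAMP response element known to bind CREB-type factors: those of Chgb (chr2:132781392-132781691, plus strand), Sst (chr16:23890795-23891094, minus strand) and Pcsk1 (chr13:75089607-75089906, plus strand). They are RefSeq windows on GRCm38.p6 that run from 250 bases before to 50 bases after the gene start. Capitals mark TGACGTCA, which reads the same on both strands.
Chgb: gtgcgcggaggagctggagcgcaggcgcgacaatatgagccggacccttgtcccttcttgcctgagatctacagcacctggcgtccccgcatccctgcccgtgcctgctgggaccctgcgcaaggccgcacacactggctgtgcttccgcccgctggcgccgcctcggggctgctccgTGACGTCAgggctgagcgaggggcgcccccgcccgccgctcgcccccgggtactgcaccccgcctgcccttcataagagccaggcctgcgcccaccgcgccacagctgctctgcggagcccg
Sst: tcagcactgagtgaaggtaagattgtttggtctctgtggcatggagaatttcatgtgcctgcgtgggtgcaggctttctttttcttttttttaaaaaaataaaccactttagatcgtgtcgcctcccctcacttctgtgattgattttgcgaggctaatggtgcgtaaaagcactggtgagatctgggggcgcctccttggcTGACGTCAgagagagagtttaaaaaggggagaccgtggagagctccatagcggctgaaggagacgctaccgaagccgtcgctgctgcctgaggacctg
Pcsk1: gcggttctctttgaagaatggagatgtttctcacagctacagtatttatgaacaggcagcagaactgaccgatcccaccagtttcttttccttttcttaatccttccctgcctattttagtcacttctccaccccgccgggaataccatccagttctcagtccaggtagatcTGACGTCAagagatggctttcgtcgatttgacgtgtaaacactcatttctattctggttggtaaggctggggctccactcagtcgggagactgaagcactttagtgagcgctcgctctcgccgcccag
RefSeq windows were found for 16 of the 18 granule genes and 17 of the 18 hormone genes, some with more than 1 window. These letters stood in 3 of 18 windows of the granule list (16.7%), those of Chgb, Pcsk1 and Scg2, and in 588 of all 32851 windows (1.79%). In the hormone list, 1 of 22 windows (4.55%) held them, that of Sst. The motif also stood in 2 of 10 windows of the EGF family, 0 of whose tested genes rose, in 2 of 14 of the antiproliferative list, 2 of whose tested genes rose and 2 fell, and in 3 of 15 of the exocytosis list. A match of letters describes the window and is no evidence that a factor binds there.

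Genes of regulated exocytosis rose, with 9 of 12 tested members higher and 0 lower (median log2 fold change 2.02). Of the 8 also tested at 6 h, 5 rose and 0 fell at 96 h. Rab3c, a small GTPase of secretory vesicles, had 3 counts over the ENR libraries and 68 over the IDE libraries, a depth-corrected ratio of 53.7 (95% interval 17.6 to 267). Cplx2, a complexin that clamps vesicle fusion, went from 3.56, 6.33 and 5.77 CPM to 39.7, 58.4 and 87.6 CPM (log2 fold change 3.47, SE 0.55, adjusted p = 4.64e-06). Syt13 (log2 fold change 2.25), a member of the synaptotagmin family, the sodium channel Scn3a (2.17) and the calcium channel subunit Cacna2d1 (2.01) also rose.

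Genes of the serotonin pathway, not all of them particular to enterochromaffin cells, rose in 7 of 8 tested members. Tph1, the rate-limiting enzyme of serotonin synthesis in the gut, was at 17.8, 11.95 and 12.1 CPM in ENR and 240.4, 304 and 342 CPM in IDE (log2 fold change 4.39, SE 0.28, adjusted p = 5.93e-14). Ddc, which makes serotonin from 5-hydroxytryptophan and is also made by enterocytes, was at 332, 314 and 361 CPM and 4105, 4966 and 3796 CPM (log2 fold change 3.67, SE 0.20, adjusted p = 1.16e-15). In both genes the lowest IDE library was more than 10-fold above the highest ENR library. The vesicular transporter Slc18a1 rose by 1.97 and the degrading oxidase Maoa by 2.62 on the log2 scale. The sulfotransferase Sult1d1 (0.94) and the cofactor-recycling enzyme Qdpr (0.83) rose less. Gch1, the first enzyme of the cofactor's synthesis, had overlapping groups (log2 fold change 0.54, adjusted p = 0.0326) and lost its call without any 1 of 4 libraries (highest adjusted p 0.235). Maob differed by 0.59 on the log2 scale with an adjusted p of 0.104.

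The transcription factors of the lineage differed in direction. Of 14 tested members, 7 rose and 2 fell. The 9 also tested at 6 h gave 2 rises and 2 falls at 96 h, with a median log2 fold change of -0.43. Neurog3 (chromosome 10, chr10:62133090-62134763), which starts the endocrine fate and is switched off again in maturing cells, was at 47.7, 31.6 and 45.6 CPM in ENR and 15.1, 38.6 and 12.9 CPM in IDE, with overlapping groups (log2 fold change -0.71, SE 0.34, adjusted p = 0.0817). Its direction was the same without any single library, and it passed the threshold without ENR replicate 2 or without IDE replicate 2. Factors that act after it rose: Fev, which acts in late endocrine progenitors, went from 8.54, 4.22 and 10.96 CPM to 52.998, 88.2 and 74.7 CPM (log2 fold change 3.16, SE 0.31, adjusted p = 7.36e-10), and Lmx1a, which acts in enterochromaffin cells, from 3.56, 2.11 and 4.04 CPM to 30.3, 18.8 and 46.4 CPM (log2 fold change 3.08, SE 0.48, adjusted p = 4.28e-06). Insm1 (log2 fold change 1.86), Rfx6 (2.41) and Runx1t1 (2.63) also rose with groups apart.

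Some of these calls rested on a single library. Nkx2-2, needed for several endocrine subtypes, rose from 2.13, 2.81 and 2.31 CPM to 7.57, 26.7 and 10.3 CPM (log2 fold change 2.73, SE 0.59, adjusted p = 0.000317), with an adjusted p of 0.0821 without IDE replicate 2. Neurod1, the factor downstream of Neurog3, read 0.711, 3.52 and 1.73 CPM and 13.2, 10.9 and 2.58 CPM with overlapping groups (log2 fold change 2.19, SE 0.70, adjusted p = 0.00989), and missed the threshold without IDE replicate 1 or 2 (highest adjusted p 0.0753). Pax4 (log2 fold change 0.68, adjusted p = 0.562), Sox4 (log2 fold change -0.43, adjusted p = 0.129), Rfx3 (log2 fold change -0.11, adjusted p = 0.853) and Foxa2 (log2 fold change -0.52, adjusted p = 0.186) did not pass. Foxa1, a pioneer factor of the secretory lineage, fell from 74.7, 83.7 and 84.2 CPM to 47.3, 35.7 and 12.9 CPM (log2 fold change -1.26, SE 0.28, adjusted p = 0.000407), and Tox3 from 76.8, 63.99 and 61.2 CPM to 28.4, 17.8 and 7.73 CPM (log2 fold change -1.84, SE 0.32, adjusted p = 1.77e-05).

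Of 5 tested receptors and channels by which endocrine cells sense the lumen, 2 rose and 2 fell. Among the 3 also tested at 6 h, 0 rose and 2 fell at 96 h. Trpa1, the irritant-gated channel of enterochromaffin cells, went from 1.42, 1.41 and 1.15 CPM to 52.998, 71.3 and 54.1 CPM (log2 fold change 5.34, SE 0.41, adjusted p = 2.99e-12). Ffar2, a short-chain fatty acid receptor, rose from 1.42, 2.11 and 2.31 CPM to 30.3, 22.8 and 15.5 CPM (log2 fold change 3.44, SE 0.50, adjusted p = 1.45e-06). Adra2a, an adrenergic receptor, fell from 22.8, 26.7 and 23.1 CPM to 11.4, 7.92 and 5.15 CPM (log2 fold change -1.52, SE 0.39, adjusted p = 0.00185). The long-chain fatty acid receptor Ffar4 gave a log2 fold change of -0.15 (adjusted p = 0.654). Gpr35 was lower (log2 fold change -1.23, adjusted p = 0.0245), which was lost without ENR replicate 2 or IDE replicate 2 (highest adjusted p 0.193).

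Goblet markers were higher for 18 of 21 tested members (median log2 fold change 1.97) and none was lower. Muc2, the gel-forming mucin, was at 196, 162 and 132 CPM in ENR and 1245, 734 and 834 CPM in IDE (log2 fold change 2.52, SE 0.22, adjusted p = 8.19e-11). Zg16, a mucus lectin, was at 96.8, 106 and 148 CPM and 2044, 4075 and 2372 CPM (log2 fold change 4.59, SE 0.27, adjusted p = 1.24e-14), and both genes had groups apart. Fcgbp, which is cross-linked to mucin in the mucus, rose by 2.62, the guanylin precursor Guca2a by 2.92, Rep15 by 3.57 and the chemokine Ccl6 by 5.57 on the log2 scale.

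Most Paneth genes that were called rose, though some members did not. Of 28 tested members, 17 rose, 1 fell and 10 were not called (median 1.13). The summed list took 0.472% to 0.545% of counts in ENR and 0.997% to 1.505% in IDE. Lyz1, the lysozyme that defines Paneth cells, was at 1315, 1069 and 1242 CPM in ENR and 1297, 1220.2 and 948 CPM in IDE, with overlapping groups (log2 fold change -0.06, SE 0.19, adjusted p = 0.809). Mptx1, a mucosal pentraxin, rose from 48.4, 44.3 and 57.7 CPM to 979, 1609.5 and 948 CPM (log2 fold change 4.55, SE 0.23, adjusted p = 4.11e-16), while its relative Mptx2 read 32.01, 31.6 and 49.05 CPM and 26.5, 27.7 and 2.58 CPM (log2 fold change -0.81, adjusted p = 0.0643) and passed the threshold without IDE replicate 2. The secreted lectins rose: Reg3a went from 28.5, 23.9 and 17.3 CPM to 617, 429 and 339.9 CPM (log2 fold change 4.32, SE 0.25, adjusted p = 7.15e-15) and Reg4, which endocrine cells also make, from 261, 203 and 208 CPM to 2205, 3628 and 2712 CPM (log2 fold change 3.67, SE 0.22, adjusted p = 2.05e-14). Reg3b had 0 counts in the 3 ENR libraries and 128 in the IDE libraries, at least 101-fold higher against a floor of 3 counts over the group. Pla2g2a, an antimicrobial phospholipase gene that the GENCODE annotation lists as a polymorphic pseudogene, fell (log2 fold change -1.69, adjusted p = 2.18e-05). Members of the defensin family are near-identical. How reads of related genes, the Reg genes among them, were split in counting was not stated.

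Tuft genes rose in 11 of 13 tested members, of 32 followed. Of the 6 tuft genes also tested at 6 h, 4 rose and 0 fell at 96 h. The 19 members under the filter were not tested. Dclk1, the usual tuft marker, was at 17.8, 13.4 and 10.96 CPM in ENR and 51.1, 50.5 and 33.5 CPM in IDE (log2 fold change 1.73, SE 0.28, adjusted p = 8.32e-06), with an adjusted p of 0.0627 after thinning to the smallest library total. Rgs13, a regulator of G-protein signalling, rose from 7.11, 4.22 and 8.08 CPM to 81.4, 81.2 and 38.6 CPM (log2 fold change 3.38, SE 0.33, adjusted p = 6.98e-10), and Alox5ap, which serves leukotriene synthesis, from 4.98, 1.41 and 4.04 CPM to 24.6, 32.7 and 23.2 CPM (log2 fold change 2.92, SE 0.43, adjusted p = 1.43e-06). Fyb (2.98) and Kctd12 (2.42) rose by similar log2 steps.

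Absorptive genes rose as well. All 20 tested brush-border genes were higher (median log2 fold change 2.48), as were 19 of 20 genes of lipid uptake and transport (2.12). Alpi, the intestinal alkaline phosphatase, was at 629.6, 540.0 and 539 CPM in ENR and 1649, 1129 and 1573 CPM in IDE (log2 fold change 1.35, SE 0.19, adjusted p = 1.2e-06). Enpep, an aminopeptidase of the brush border, went from 7.83, 11.95 and 7.501 CPM to 303, 213 and 239 CPM (log2 fold change 4.77, SE 0.28, adjusted p = 1.11e-14). The groups were apart in both genes. Lct, lactase, had 3 counts over the ENR libraries and 52 over the IDE libraries, a depth-corrected ratio of 41.04 (95% interval 13.3 to 205). In lipid handling, Apoa1, the main HDL protein, rose from 70.4, 73.1 and 89.4 CPM to 1011, 876 and 966 CPM (log2 fold change 3.61, SE 0.23, adjusted p = 5.04e-14), the fatty acid receptor Cd36 by 5.31, the sterol pump subunit Abcg5 by 3.28 and the transcription factor Creb3l3 by 3.64 on the log2 scale. Scarb1, a lipoprotein receptor, was the exception and fell (log2 fold change -1.41, adjusted p = 0.00116).

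**Figure D2:**
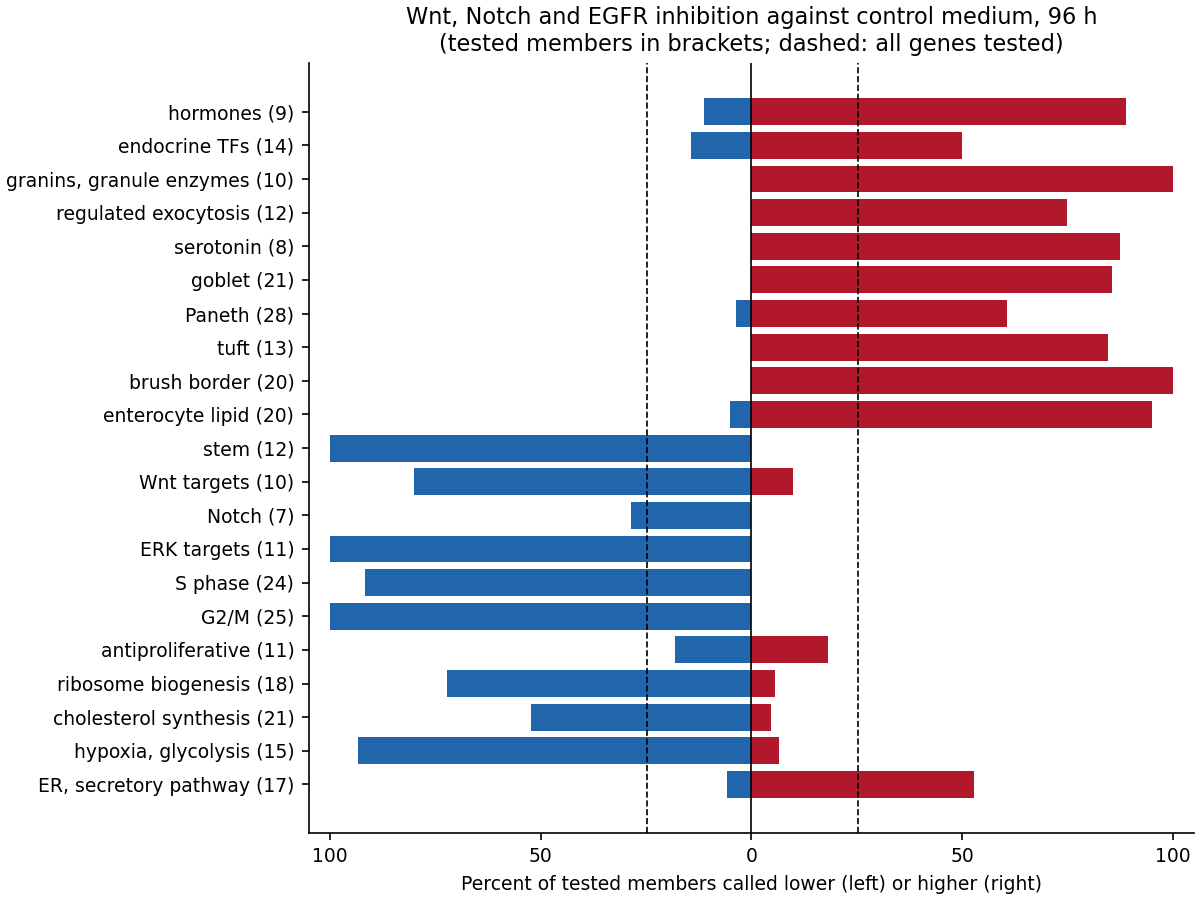
Percent of the tested members of 21 gene lists that were lower (blue, left) or higher (red, right) in triple-inhibited than in control organoids at 96 h, with the number tested in brackets. Dashed lines mark the same over all genes tested (24.7% lower, 25.4% higher); all tested granule, brush-border, stem, ERK and G2/M members were called, in 1 direction each.

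Stem cell genes fell: all 12 tested members were lower, with a median log2 fold change of -2.35. Lgr5 (chromosome 10, chr10:115450311-115587780), the R-spondin receptor that marks crypt-base stem cells, was at 159, 142 and 164 CPM in ENR and 49.2, 37.6 and 43.8 CPM in IDE (log2 fold change -1.85, SE 0.21, adjusted p = 1.38e-08). Ascl2, the stem-cell transcription factor, went from 125.9, 122 and 134 CPM to 32.2, 16.8 and 7.73 CPM (log2 fold change -2.72, SE 0.26, adjusted p = 7.01e-10), and Smoc2 from 134, 132 and 118 CPM to 30.3, 19.8 and 20.6 CPM (log2 fold change -2.46, SE 0.23, adjusted p = 2.45e-10). The groups of these genes were apart, and Lgr5 still read above 35 CPM in each IDE library. Igfbp4, an IGF-binding protein of the crypt, fell furthest, from 241, 317 and 268 CPM to 13.2, 8.91 and 2.58 CPM (log2 fold change -4.94, SE 0.30, adjusted p = 1.58e-14), followed by the water channel Aqp4 (log2 fold change -4.28).

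Targets of the inhibited pathways were examined next. Of 10 tested Wnt targets, 8 fell and 1 rose (median -2.04). Axin2, the feedback inhibitor most used as a Wnt readout, was at 71.9, 85.1 and 67.5 CPM in ENR and 18.9, 2.97 and 0 CPM in IDE (log2 fold change -3.41, SE 0.45, adjusted p = 2.1e-07), and the crypt receptor Ephb2 at 88.9, 54.8 and 77.3 CPM and 5.68, 4.95 and 10.3 CPM (log2 fold change -3.51, SE 0.35, adjusted p = 1.46e-09). Znrf3, which removes Wnt receptors (-2.87), Myb (-3.25) and Cd44 (-2.13) fell too. The gene that rose was Mmp7, a protease that Paneth cells make (log2 fold change 1.19, adjusted p = 0.00069); after thinning all libraries to the smallest total its adjusted p was 0.186.

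In the Notch list, 2 of 7 tested members fell and none rose, a share of falls near the 24.7% of all genes tested. The other 11 of 18 members were not tested. Hes1, the repressor that Notch switches on, was at 398, 463 and 509 CPM in ENR and 197, 121 and 84.98 CPM in IDE (log2 fold change -1.76, SE 0.22, adjusted p = 1.22e-07). Nrarp, a Notch feedback inhibitor, was at 98.9, 96.3 and 68.7 CPM and 24.6, 7.92 and 0 CPM (log2 fold change -2.97, SE 0.41, adjusted p = 6.45e-07). Atoh1, the secretory master factor that Hes1 represses, read 17.1, 10.5 and 16.2 CPM and 17.03, 25.8 and 36.1 CPM (log2 fold change 0.80, adjusted p = 0.056) and passed the threshold without IDE replicate 1. The ligand genes Dll1 (log2 fold change 0.62, adjusted p = 0.202) and Dll4 (log2 fold change 0.81, adjusted p = 0.122) did not pass. Neither did Hes6 (log2 fold change 0.355, adjusted p = 0.184) or Numb (log2 fold change 0.468, adjusted p = 0.207).

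All 11 tested ERK-dependent genes fell, with a median of -2.71. Ccnd1, the cyclin that carries growth signals into G1, was at 177, 176 and 161 CPM in ENR and 17.03, 13.9 and 10.3 CPM in IDE (log2 fold change -3.60, SE 0.25, adjusted p = 3.13e-13), and its relative Ccnd2 at 692, 693 and 676 CPM and 108, 52.5 and 33.5 CPM (log2 fold change -3.40, SE 0.23, adjusted p = 2.94e-13). Every IDE library was below every ENR library in both. Myc (-2.77), the feedback inhibitors Dusp6 (-2.44), Spry1 (-2.87) and Spred1 (-2.71) and Phlda1 (-2.83) fell by similar log2 steps. The immediate early genes Egr1 (-1.76), Fos (-1.20) and Ier3 (-1.36) fell less. Fos lost its call without IDE replicate 2 (adjusted p 0.055), and Ier2 (log2 fold change -0.57, adjusted p = 0.0227) lost its call without any 1 of 3 libraries (highest adjusted p 0.304). Of 7 tested genes of the EGF family, which hold receptors, ligands and a feedback inhibitor, 2 fell and none rose. That share of falls is near the 24.7% of all genes tested. The 2 were Erbb2 (log2 fold change -1.24, adjusted p = 0.00834) and the feedback inhibitor Errfi1 (log2 fold change -0.99, adjusted p = 0.0374). The first call was lost without IDE replicate 2 (adjusted p 0.127) and the second without any 1 of 4 libraries (highest adjusted p 0.118). Egfr (log2 fold change -0.74, adjusted p = 0.159) and the ligand Areg (log2 fold change 0.30, adjusted p = 0.18) did not pass.

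Proliferation genes fell. All 25 tested genes of G2 and mitosis were lower (median log2 fold change -3.84), as were 22 of 24 genes of S phase (-3.25). Mki67 (chromosome 7, chr7:135689784-135716361), which marks cycling cells, was at 213, 287 and 306 CPM in ENR and 5.68, 7.92 and 0 CPM in IDE (log2 fold change -5.53, SE 0.38, adjusted p = 3.47e-13). Top2a, the mitotic topoisomerase, went from 349, 371 and 342 CPM to 13.2, 7.92 and 2.58 CPM (log2 fold change -5.38, SE 0.32, adjusted p = 1.2e-14), and Cdk1, the mitotic kinase, from 344, 345 and 344 CPM to 15.1, 4.95 and 7.73 CPM (log2 fold change -5.32, SE 0.34, adjusted p = 5.93e-14). The summed G2/M list took 0.304% to 0.32% of the counts in ENR and 0.0175% to 0.028% in IDE. Ccnb2, a mitotic cyclin, had 377 counts over the ENR libraries and 2 over the IDE libraries, a depth-corrected ratio of 79.6 (95% interval 21.9 to 659.8), and the spindle protein gene Nusap1 275 and 1. In S phase, the nucleotide reductase subunit Rrm2 had a change of -4.78 on the log2 scale and the replicative helicase subunit Mcm7 of -3.53.

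The promoters of 3 members of the G2/M and S-phase lists are shown for the sequence elements that such promoters are known for: Ccnb2 (chr9:70421505-70421804, minus strand), Top2a (chr11:99024140-99024439, minus strand) and Mcm3 (chr1:20820263-20820562, minus strand), a replicative helicase subunit. The level of Mcm3 is not given here. In Ccnb2 and Top2a, capitals mark CCAAT, the box bound by NF-Y, and TTTGAA, the core of the cell cycle homology region, on either strand. In Mcm3, capitals mark TTTNGCGC, an E2F site.
Ccnb2: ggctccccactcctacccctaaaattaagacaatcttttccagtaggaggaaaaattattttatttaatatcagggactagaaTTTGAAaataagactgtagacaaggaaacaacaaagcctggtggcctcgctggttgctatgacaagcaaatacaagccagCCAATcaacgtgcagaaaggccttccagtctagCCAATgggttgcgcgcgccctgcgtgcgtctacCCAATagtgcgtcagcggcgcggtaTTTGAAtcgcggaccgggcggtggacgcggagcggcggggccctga
Top2a: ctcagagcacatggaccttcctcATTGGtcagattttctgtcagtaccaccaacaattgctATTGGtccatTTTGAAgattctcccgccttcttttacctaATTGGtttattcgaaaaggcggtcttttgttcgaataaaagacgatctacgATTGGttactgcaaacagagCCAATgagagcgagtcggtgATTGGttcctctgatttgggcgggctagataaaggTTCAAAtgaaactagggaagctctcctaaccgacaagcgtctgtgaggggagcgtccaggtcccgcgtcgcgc
Mcm3: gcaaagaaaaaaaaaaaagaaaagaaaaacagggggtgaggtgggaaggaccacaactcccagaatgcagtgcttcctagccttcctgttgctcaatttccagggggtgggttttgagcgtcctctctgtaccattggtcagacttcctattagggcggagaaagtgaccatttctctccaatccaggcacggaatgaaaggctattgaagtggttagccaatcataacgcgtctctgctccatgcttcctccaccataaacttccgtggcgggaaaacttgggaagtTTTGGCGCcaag
Ccnb2 held 3 CCAAT boxes and 2 TTTGAA cores in its window, and Top2a held 6 and 2. Windows were found for 24 of 27 G2/M and 24 of 28 S-phase genes. CCAAT stood in 21 of 25 windows of the G2/M list (84.0%) and in 37.4% of all windows, but also in 82.4% of windows of the ER and secretory list, most of whose called genes rose, and in 77.8% of the cholesterol list. TTTGAA stood in 18 of 25 G2/M windows (72.0%) and in 17.9% of all windows. TTTNGCGC stood in 8 of 29 windows of the S-phase list (27.6%), in 1 of 25 of the G2/M list (4.00%) and in 1.38% of all windows. The 2 G2/M motifs do not overlap each other in the windows shown. In all, 12 motifs were searched on both strands, and those printed were chosen after the counts were seen.

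Genes known to restrain division did not rise as a group: 2 of 11 rose and 2 fell. Cdkn2b, the p15 inhibitor of the G1 kinases, went from 59.8, 38.7 and 59.4 CPM to 157, 173 and 149 CPM (log2 fold change 1.61, SE 0.22, adjusted p = 6.71e-07), and Cdkn1c, p57, from 4.27, 2.11 and 5.77 CPM to 15.1, 17.8 and 18.03 CPM (log2 fold change 1.995, SE 0.51, adjusted p = 0.00182). Cdkn1b, p27, fell from 211, 208 and 208 CPM to 77.6, 73.3 and 69.5 CPM (log2 fold change -1.501, SE 0.22, adjusted p = 1.95e-06), and Cdkn2c, p18, fell as well (log2 fold change -3.88, adjusted p = 5.52e-06).

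Growth and supply genes were lower. In ribosome biogenesis, 13 of 18 tested genes fell and 1 rose (median -1.17). Npm1, nucleophosmin, was at 1960.0, 2044 and 2165 CPM in ENR and 492, 490.3 and 394 CPM in IDE (log2 fold change -2.16, SE 0.18, adjusted p = 2.97e-11), and nucleolin, Ncl, had a log2 fold change of -1.83. Bop1 was the gene that rose (log2 fold change 0.61, adjusted p = 0.0217), a call lost without ENR replicate 3 or IDE replicate 1 (highest adjusted p 0.11). In hypoxia and glycolysis, 14 of 15 fell (median -1.56): Car9, the carbonic anhydrase induced by low oxygen, went from 674, 461 and 581 CPM to 155, 84.2 and 48.9 CPM (log2 fold change -2.56, SE 0.24, adjusted p = 4.42e-10), and Vegfa had a log2 fold change of -1.77. Ndrg1 went the other way, from 398, 555 and 489.9 CPM to 1408, 781 and 641 CPM (log2 fold change 0.97, SE 0.23, adjusted p = 0.000945). In cholesterol synthesis, 11 of 21 fell, among them Hmgcs1 (log2 fold change -1.502, adjusted p = 5.65e-09) and the regulator Srebf2 (log2 fold change -1.84, adjusted p = 7.37e-05).

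Of 17 genes of the ER and secretory pathway, 9 rose and 1 fell (median 0.43). The number that rose was 5 without ENR replicate 2 and 5 without IDE replicate 2. The stress factors Atf4 (log2 fold change 0.82, adjusted p = 0.000153) and Ddit3 (log2 fold change 1.38, adjusted p = 0.00106) and the chaperone partner Dnajb9 (log2 fold change 1.23, adjusted p = 0.000778) were among the rises, and Pdia6, a disulfide isomerase, fell (log2 fold change -0.48, adjusted p = 0.0146), a call lost without IDE replicate 1 (adjusted p 0.128).

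Among the largest rises of single genes were detoxifying enzymes. Cyp3a11, a cytochrome P450 of drug and bile acid metabolism, was at 24.9, 30.9 and 27.1 CPM in ENR and 5915, 8729.9 and 12894 CPM in IDE (log2 fold change 8.37, SE 0.33, adjusted p = 1.13e-18). Cyp2c29 was at 4.98, 7.03 and 8.08 CPM and 1798, 3237 and 3474 CPM (log2 fold change 8.67, SE 0.40, adjusted p = 3.38e-17), and the metallothionein Mt4 at 1.42, 0.703 and 2.31 CPM and 589, 752 and 610.3 CPM (log2 fold change 8.57, SE 0.34, adjusted p = 1.13e-18). The lowest IDE library was more than 100-fold above the highest ENR library in all 3. Others among the 10 largest rises with at least 20 CPM were Spink3, a trypsin inhibitor gene (4.27, 5.63 and 12.1 CPM against 819.6, 693 and 641 CPM, log2 fold change 6.53, SE 0.26, adjusted p = 1.56e-18), Cyp2c38 (log2 fold change 5.98) and the sugar transporter relative Slc5a4b (5.75). Afp, alpha-fetoprotein, had 0 counts in ENR and 86 in IDE, at least 67.9-fold higher against a floor of 3 counts over the group. Of the 10 deepest falls, the linker histone gene Hist1h1b, Cenpi, Mpp4 and Neil3 had 0 counts in IDE against 124, 109, 99 and 97 in ENR, at least 17.5-, 15.3-, 13.9- and 13.7-fold lower against 3 counts over the group. The condensin subunit gene Ncaph had 427 counts in ENR and 1 in IDE, a depth-corrected ratio of 180.3 (95% interval 32.2 to 7139.6), and Melk 339 and 1.

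Gene families, and lists of metallothionein and zinc genes and of retinoid genes, were followed after their values had been seen, so their counts are descriptions. Of 15 tested Cyp2 genes, 12 rose and 2 fell, and all 3 tested Cyp3a genes rose, as did all 5 tested glucuronyltransferases, which belong to the Ugt2 family. Of 14 tested glutathione transferases 11 rose, the largest being Gsta2, from 119, 105.5 and 119 CPM to 2139, 2532 and 2524 CPM (log2 fold change 4.38, SE 0.20, adjusted p = 3.27e-17). Gstm1 was at 5001, 4662 and 5414 CPM in ENR and 34585, 31945 and 26921 CPM in IDE (log2 fold change 2.63, SE 0.22, adjusted p = 4.26e-11). Of 7 carboxylesterases, 6 rose and Ces2g fell (log2 fold change -1.52, adjusted p = 9.62e-07). Of 9 tested metallothionein and zinc genes, 6 rose and 3 fell. Mt1 went from 692, 891 and 1025 CPM to 13049, 13972 and 9747 CPM (log2 fold change 3.82, SE 0.22, adjusted p = 4.63e-15) and Mt2 from 532, 815 and 926 CPM to 11665, 11395 and 10852 CPM (log2 fold change 3.90, SE 0.23, adjusted p = 1.75e-14). Of 10 tested genes of retinoid metabolism 9 rose, led by Aldh1a1, retinaldehyde dehydrogenase, from 222, 251 and 252 CPM to 7793, 10079 and 8666 CPM (log2 fold change 5.19, SE 0.22, adjusted p = 4.69e-18). Of 7 tested keratin genes 1 rose and 1 fell, and of 2 tested histone genes 1 rose and 1 fell. Over all genes tested, 25.4% rose and 24.7% fell. Paralogs in these families are close in sequence, so reads may be split between them.

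The epithelial label was checked against its markers, which took 0.374% to 0.424% of counts in ENR and 0.372% to 0.44% in IDE, with overlapping ranges. Of 9 mesenchymal, 9 immune and 9 endothelial or neural markers, 1, 0 and 1 passed the filter on low counts. Their sums were 0.000209% to 0.000805%, 0.00046% to 0.000558% and 0.000419% to 0.00112% of counts in ENR, and 0.00213% to 0.00362%, 0.000421% to 0.000945% and 0.00184% to 0.00378% in IDE. Vim (vimentin, log2 fold change 2.26, adjusted p = 0.000182) rose, at a mean of 18.2 CPM in IDE. The part of these markers in the results was not tested. Col1a1, Kdr, Sox10 and Gfap had 0 counts in all IDE libraries, and Ptprc had 1.

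The triple treatment was also set against organoids given only some of the inhibitors. Organoids under Wnt and Notch inhibition (ID, 3 libraries) belonged to the same library set as IDE, so adding the EGFR inhibitor is the contrast in which set did not differ. Organoids under EGFR inhibition alone (Ei, 3 libraries) belonged to the set of the controls, so set and treatment cannot be told apart in their comparison with IDE. Both comparisons share the IDE libraries with the one above. Totals were 322050 to 574340 counts in ID and 158135 to 554681 in Ei.

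Against ID, IDE organoids differed in 1939 of the 8135 genes (23.8%), 875 higher (10.8%) and 1064 lower (13.1%). Chga was higher again, at 501, 453 and 324 CPM in ID (log2 fold change 1.87, SE 0.20, adjusted p = 2.53e-08). Gip was at 345, 302 and 305 CPM (log2 fold change 1.42, SE 0.17, adjusted p = 1.41e-07) and Sst at 312, 184 and 243 CPM (log2 fold change 1.14, SE 0.21, adjusted p = 0.000161) in the ID libraries, each below every IDE library. The granule list gave 3 of 10 higher and 0 lower, with a median of 0.43, against an all-gene median of -0.03. The 3 were Chga, Chgb (log2 fold change 0.77, SE 0.19, adjusted p = 0.00353) and Pcsk1, whose call was lost without IDE replicate 2 or ID replicate 3 (highest adjusted p 0.101). In the hormone list 2 of 9, Gip and Sst, were higher and 2 lower: Adm, whose call was lost without IDE replicate 2 (adjusted p 0.0979), and Cck, at 730.4, 414 and 476 CPM in ID (log2 fold change -1.12, SE 0.25, adjusted p = 0.00106). Of 12 exocytosis genes 0 were higher and 1 lower (median -0.23). Neither Neurog3 (log2 fold change -0.86, adjusted p = 0.0997) nor any of the late factors that rose against ENR passed the test here. Neurog3 passed as lower without IDE replicate 2 or without ID replicate 2, and Fev as higher without IDE replicate 1 or without ID replicate 3. In the full fit 2 of 14 factors, Tox3 and Foxa1, were lower.

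Goblet genes were lower with the EGFR inhibitor added: 11 of 21 fell and 3 rose. Muc2 was at 4358, 3353 and 3382 CPM in ID (log2 fold change -1.98, SE 0.21, adjusted p = 2.86e-08) and Zg16 at 20065, 9711 and 12900.5 CPM (log2 fold change -2.33, SE 0.24, adjusted p = 1.45e-08). Every IDE library lay below every ID library for both genes, though above every ENR library. Tuft genes were higher for 6 of 13 (3 to 6 when each library was left out in turn, fewest without IDE replicate 2 or ID replicate 3), with Rgs13 at 16.2, 3.28 and 15.1 CPM in ID (log2 fold change 2.44, SE 0.38, adjusted p = 1.52e-05), but Dclk1 did not pass (log2 fold change 0.09, adjusted p = 0.871). Brush-border genes split, 6 higher and 5 lower of 20, and 3 were higher without IDE replicate 1. ERK targets (8 of 11 lower, median -2.34) and G2/M genes (20 of 25 lower, -2.34) were lower than in ID, though 12 G2/M genes were called without IDE replicate 2, and Mki67 was at 80.8, 42.7 and 65.9 CPM in ID (log2 fold change -3.498, SE 0.47, adjusted p = 1.43e-06). Of 12 stem genes 5 were lower, Lgr5 not among them (log2 fold change -0.21, adjusted p = 0.614); the count ranged from 2 to 7 when single libraries were left out, being 2 without ID replicate 1.

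The largest single rises over ID with at least 20 CPM were Hmox1, haem oxygenase, at 23.3, 6.57 and 32.01 CPM in ID and 441, 306 and 448 CPM in IDE (log2 fold change 4.12, SE 0.29, adjusted p = 6.57e-12), Lct, Mt4 (3.99), Agtpbp1 (3.89) and Cyp2c29 (3.67). Ada, adenosine deaminase, had 157 counts in ID and 0 in IDE, at least 72.4-fold lower, Oas3 41 and 0 (at least 18.9-fold) and Msln 31 and 0 (at least 14.3-fold). Tff1, a trefoil peptide, had 165 counts in ID and 1 in IDE, a depth-corrected ratio of 228 (95% interval 40.4 to 9068), and Ido1 110 and 1. Oas3 and Ido1 are induced by interferons. In a list of interferon-induced genes drawn up after these values were seen, 14 of 17 were lower in IDE than in ID and none was higher, with Ifit1 at 359, 532 and 250.4 CPM in ID, 26.5, 25.8 and 28.3 CPM in IDE and 9.25, 6.33 and 5.77 CPM in ENR. Against ENR the same list gave 7 higher and 1 lower.

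**Figure D3:**
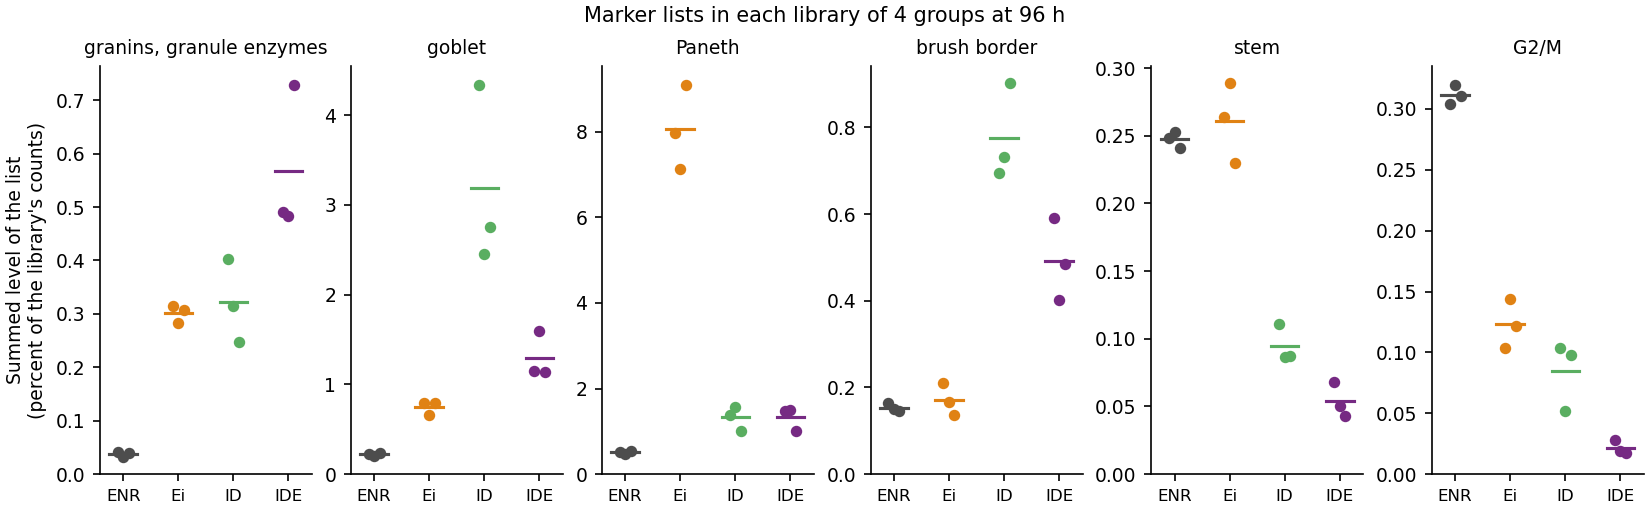
Summed level of 6 marker lists, in percent of all counts of a library, for each of 3 libraries of control (ENR), EGFR-inhibited (Ei), Wnt and Notch inhibited (ID) and triple-inhibited (IDE) organoids at 96 h; points are libraries and bars are means. Among these 4 groups, granule genes were highest and G2/M genes lowest in IDE, goblet genes highest in ID and Paneth genes in Ei; under Wnt, Notch and Mek inhibition, not drawn, the granule list took 1.06% to 1.18% of counts.

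Against EGFR inhibition alone, IDE organoids differed in 2600 genes (32.0%), 1242 higher (15.3%) and 1358 lower (16.7%). Without Ei replicate 1, the deepest Ei library, 1689 genes differed. Of 9 hormones 7 were higher (3 without Ei replicate 1 and 4 without IDE replicate 2), Gip being at 244, 242 and 268 CPM in Ei (log2 fold change 1.77, SE 0.18, adjusted p = 2.6e-09). Chga was at 386, 273 and 489 CPM in Ei (log2 fold change 2.01, SE 0.21, adjusted p = 3.8e-09). The granule list gave 3 of 10 higher and 0 lower (Pcsk1 was lost without IDE replicate 2 or Ei replicate 1), exocytosis 1 higher and 1 lower of 12 (median -0.23; the higher one, Rab3c, was lost without Ei replicate 1), and tuft genes 0 higher and 2 lower of 13, the tuft calls falling to 0 or 1 without any 1 of the 6 libraries. Of 14 endocrine factors 4 were lower and 1, Lmx1a, was higher (log2 fold change 1.73, adjusted p = 0.0272), a call lost without any 1 of 3 libraries (highest adjusted p 0.385). Among the lower ones, Neurog3 was at 90.9, 74.4 and 122 CPM in Ei (log2 fold change -1.90, SE 0.37, adjusted p = 0.000155), and the others were Sox4 (log2 fold change -2.002, adjusted p = 1.38e-07), Foxa1 (log2 fold change -1.90, adjusted p = 1.52e-05) and Pax4 (log2 fold change -2.85, adjusted p = 0.00439), the last with an adjusted p of 0.0566 without Ei replicate 1.

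Paneth genes were lower than in Ei. Of 28 tested, 24 were lower in IDE and 3 higher (median -2.74). Lyz1 was at 12548, 10424 and 14764 CPM in Ei (log2 fold change -3.44, SE 0.21, adjusted p = 5.62e-14), and Mptx2 at 1530.3, 1921 and 2919 CPM (log2 fold change -6.61, SE 0.33, adjusted p = 4.08e-15). The summed Paneth list took 7.13% to 9.10% of counts in Ei, 1.01% to 1.57% in ID and 0.997% to 1.505% in IDE. Absorptive genes went the other way, 18 of 20 brush-border and 18 of 20 lipid genes being higher. All 12 stem and all 10 Wnt target genes tested were lower, and 21 of 25 G2/M genes, Mki67 reading 82.3, 105.4 and 94.01 CPM in Ei (log2 fold change -3.97, SE 0.47, adjusted p = 6.4e-08).

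Arg2, an arginase, had 0 counts in Ei and 56 in IDE, at least 9.27-fold higher. Cyp3a11 was at 287, 236 and 277 CPM in Ei (log2 fold change 5.09, SE 0.28, adjusted p = 1.64e-14), and Ces2a, a carboxylesterase, at 130.4, 167 and 179 CPM (log2 fold change 4.82, SE 0.30, adjusted p = 1.56e-13). Msln, mesothelin, had 56 counts in Ei and 0 in IDE, at least 37.6-fold lower, and Ankrd1, a target of YAP signalling, 115 and 2, a depth-corrected ratio of 116 (95% interval 31.3 to 967). Clca3b (log2 fold change -6.03, adjusted p = 1.16e-14) was lower as well, and Ly6a, known in mice as Sca-1, had 105 counts in Ei and 3 in IDE.

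**Figure D4:**
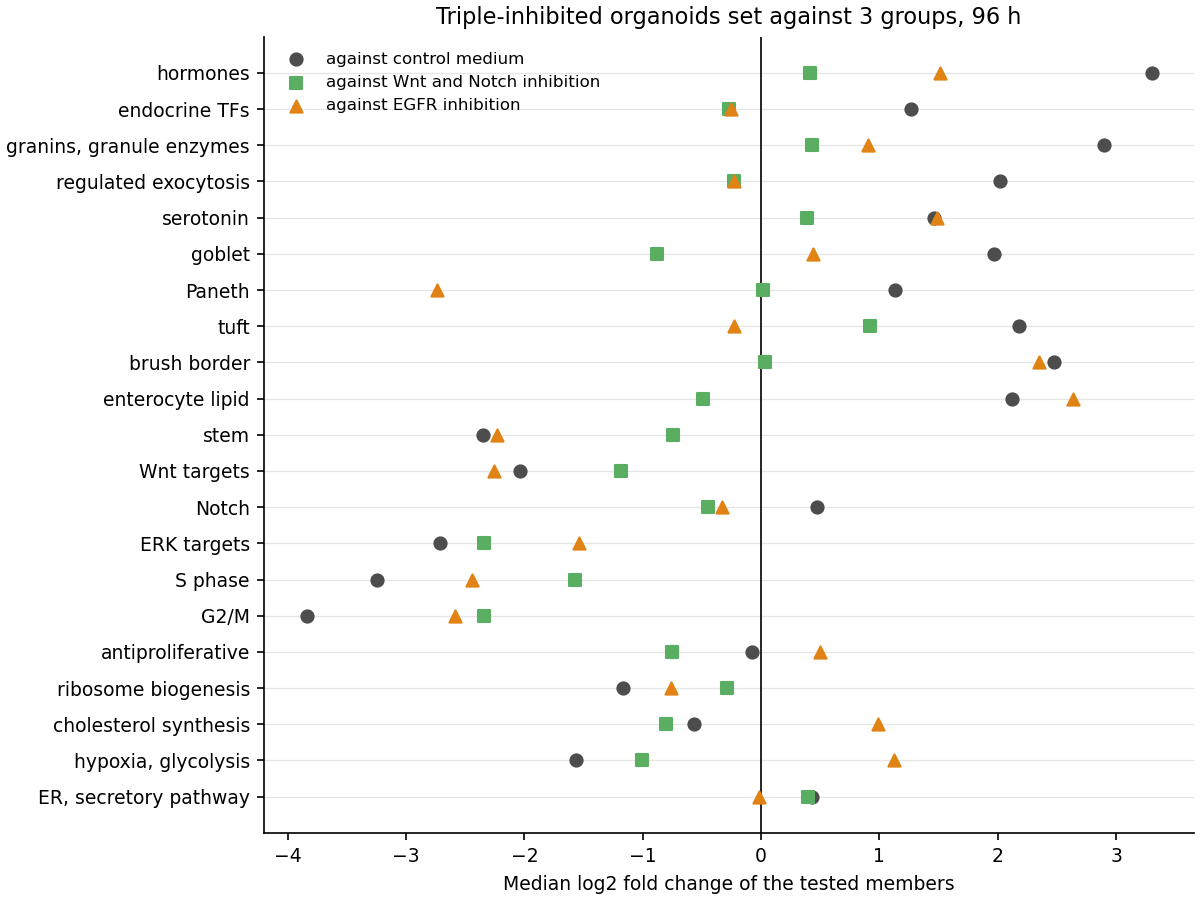
Median log2 fold change of the tested members of 21 gene lists in triple-inhibited organoids at 96 h, set against control medium (circles), Wnt and Notch inhibition (squares) and EGFR inhibition (triangles); the 3 comparisons share the triple-inhibited libraries. G2/M medians were -3.84, -2.34 and -2.59, and the Paneth medians 1.13, 0.02 and -2.74.

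The same inhibitors had also been applied for 6 h, in other libraries (IDE and ENR, 3 each, from library sets 2 and 1, which again cannot be told apart from treatment), where 2766 of 9380 genes (29.5%) differed, 1264 higher (13.5%) and 1502 lower (16.0%). Of the 7905 genes tested at both times, 530 were higher at both and 665 lower at both, while 152 were higher at 6 h and lower at 96 h, and 92 lower at 6 h and higher at 96 h. The change between the times was not tested. Of the ERK targets, 11 of 13 were lower at 6 h (median -2.31), with Ccnd2 at 876, 743 and 902 CPM in ENR and 67.04, 104 and 78.001 CPM in IDE (log2 fold change -3.34, SE 0.17, adjusted p = 8.17e-18) and Dusp6 at 43.2, 44.7 and 37.9 CPM and 3.05, 8.02 and 4.63 CPM (log2 fold change -2.97, SE 0.29, adjusted p = 4.17e-10). Ribosome biogenesis (19 of 19 lower, median -1.57) and S phase (25 of 27, -1.15) were lower by then too.

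Of 27 G2/M genes, 2 were higher at 6 h (Ccnb2 and Nusap1) and 0 lower (median -0.04), and Mki67 read 298, 282 and 373 CPM in ENR and 332, 392 and 333 CPM in IDE (log2 fold change 0.15, SE 0.14, adjusted p = 0.449). Genes that restrain division were higher at 6 h for 6 of 12, among them Ccng2 (log2 fold change 1.83, SE 0.17, adjusted p = 2.62e-10), which at 96 h had a log2 fold change of -0.32 (adjusted p = 0.279), and Cdkn1b (log2 fold change 0.81, SE 0.16, adjusted p = 0.000205), which was lower at 96 h. No granule gene passed the test at 6 h (7 tested), Chga reading 25.3, 32.8 and 37.1 CPM in ENR and 30.5, 24.8 and 44.5 CPM in IDE (log2 fold change 0.13, SE 0.23, adjusted p = 0.732). Of the hormones, Sst was already higher (log2 fold change 0.91, SE 0.31, adjusted p = 0.0215), while Cck was lower (log2 fold change -0.79, SE 0.29, adjusted p = 0.0394); single libraries decided both calls, with highest adjusted p of 0.088 and 0.235 when each library was left out in turn. Adm was lower (log2 fold change -2.004, SE 0.38, adjusted p = 0.000105), as it was at 96 h. Of 12 Notch genes 4 were higher at 6 h and 1 lower. The higher ones included Dll1 (log2 fold change 0.70, SE 0.27, adjusted p = 0.0486), Dll4 (log2 fold change 0.84, SE 0.33, adjusted p = 0.0479) and Atoh1 (log2 fold change 0.80, SE 0.29, adjusted p = 0.0355), none of which passed at 96 h. The Dll1 and Dll4 calls were lost without any 1 of the 6 libraries, and the Atoh1 call without any 1 of 4 (highest adjusted p 0.147, 0.154 and 0.182). Neurog3 did not pass at 6 h (log2 fold change 0.42, SE 0.19, adjusted p = 0.0881). Of 14 stem genes 4 were lower and 1, Soat1, was higher; Lgr5 was among the former (log2 fold change -0.58, adjusted p = 0.0131, but 0.132 without ENR replicate 1). Cyp3a11 was at 262, 218 and 158 CPM in ENR and 812, 797 and 708 CPM in IDE at 6 h (log2 fold change 1.86, SE 0.20, adjusted p = 5.41e-09).

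**Figure D5:**
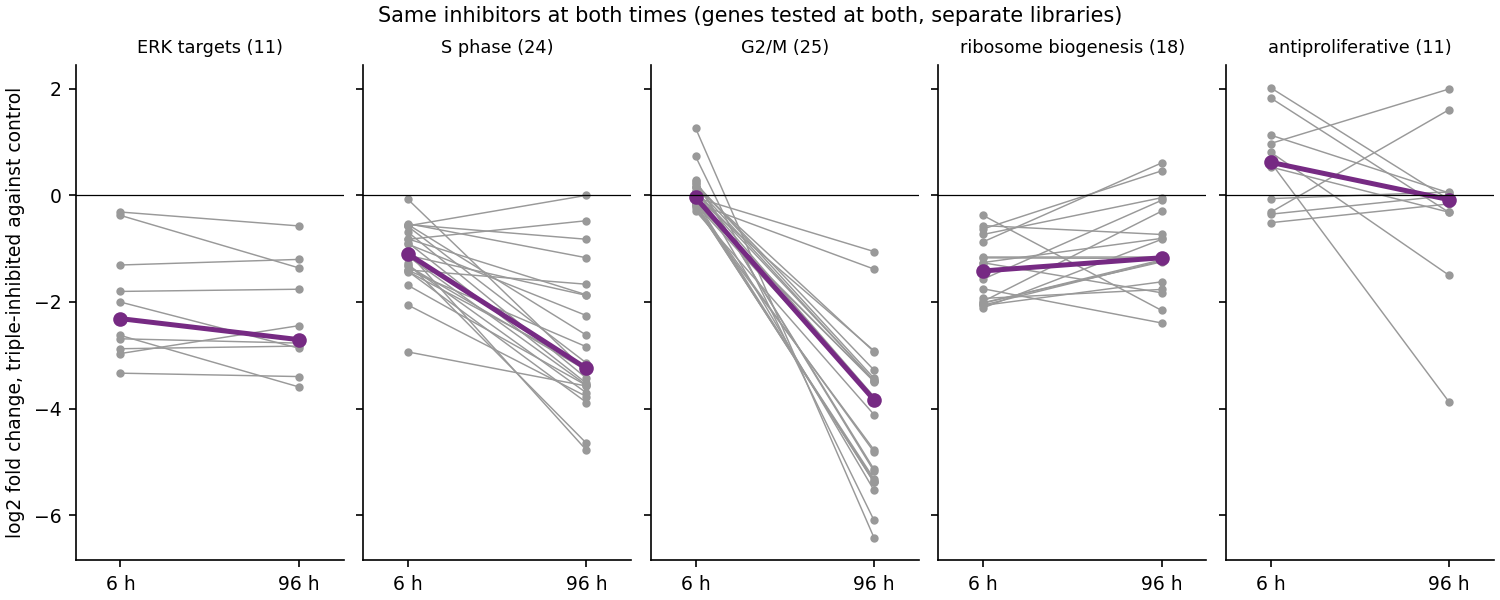
Log2 fold change of triple-inhibited against control organoids at 6 h and 96 h for the genes of 5 lists that were tested at both times (number in brackets); each thin line is a gene, the thick line joins the medians, and the libraries of the 2 times are separate. ERK targets were down at both times, and the G2/M median went from -0.04 to -3.84.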

How the data were processed

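The authors deposited raw counts per gene for each library, one count file per library, from CEL-seq 3′ reads; per the submitters' processing notes, reads were mapped with BWA 0.6.2-r126 to mm10, and the counting program and annotation are not given in the sources used here. Genes that one file did not list were read as 0, and 2 spike-in rows were left out. All 18 whole-organoid libraries of a time point were fitted together with edgeR 4.0.16 in R 4.3.3 (filterByExpr, TMM, quasi-likelihood test, Benjamini-Hochberg threshold 0.05), and each contrast was taken from that fit. The fit was tested on simulated data. Totals at 96 h ran from 158135 to 1738425 counts. Intervals and floors cover counting error only, and CEL-seq reads here carry no statement on molecular identifiers.

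The members and gene lists were chosen with earlier results of these data known. The text names 8 marker genes, all tested hormone, endocrine factor, granule, serotonin, Notch and ERK genes, up to 5 genes of each other list with the smallest adjusted p and up to 3 called the other way, the 10 largest rises and 10 deepest falls, and 5 each way against the partial treatments. Genes named outside this rule include Mcm3, shown for its promoter, and Soat1 at 6 h. The interferon, metallothionein and zinc, and retinoid lists and the enzyme, keratin and histone families were added after their values were seen. Deviations of log2 CPM from the group mean correlated by -0.045 to 0.066 between same-numbered libraries of the groups compared. The numbers were therefore not treated as pairs. Alternatives were DESeq2 1.42.0, other scalings, no filter, only the 6 libraries, thinning, a minimum fold, a replicate block and leaving out each library. Positions are from GENCODE M21 and promoters from RefSeq GRCm38.p6. A few genes are not reported here.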

Additional observations from a re-analysis of the deposited data

Results flagged for a closer look

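Several genes moved one way in every library at 6 h and the opposite way in every library at 96 h, between triple-inhibited and control organoids. The difference between the times was not tested for any of them, and the libraries and library sets of the times are separate. They are 10 of 168 named genes tested at both times, which were picked in part by their 96 h values. Over all 7905 genes tested at both times, 152 were called higher at 6 h and lower at 96 h, and 92 the reverse. Those all-gene counts did not require that the libraries lie apart. The 10 genes are given as values only.

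These include cell-division genes that were higher at 6 h and lower at 96 h. The log2 fold changes were 1.49 and -6.82 for Neil3, a DNA glycosylase gene, 1.26 and -6.42 for Nusap1, 0.73 and -6.1 for Ccnb2 and 0.63 and -6.04 for Cdca3. Those at 96 h rest on 0 to 3 counts in the triple-inhibited libraries, so their size is uncertain. Clca3b, of the secreted CLCA family, had 0.65 and -4.93, and Cdkn1b, the p27 inhibitor, 0.81 and -1.5.

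The other genes were lower at 6 h and higher at 96 h: the hormone gene Cck with -0.79 and 1.74, the keratin gene Krt20 of differentiated epithelium with -0.75 and 1.83, the ER chaperone partner Dnajb11 with -0.67 and 0.96, and the ribosome assembly gene Bop1 with -0.87 and 0.61.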

How the results depend on the processing

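The number of genes past the threshold in the 4 comparisons (triple-inhibited against control, against Wnt and Notch inhibition, against EGFR inhibition, and at 6 h) was 4075, 1939, 2600 and 2766. It moved by over 1.5 times in every comparison under 2 settings, and in 1 comparison without a single library. Tested against a log2 change of 1, the counts were 1208, 251, 631 and 180, and with all libraries thinned to the smallest total of their time point they were 1607, 802, 1274 and 1526. DESeq2 called 3743, 1773, 2375 and 2263. With the replicate number as a block, the counts were 4016, 1873, 2509 and 2773; the block moved no count by over 1.5 times. Leaving out 1 library at a time gave 3366 to 3787, 1372 to 1814, 1689 to 2562 and 2100 to 2337 genes, the third falling by over 1.5 times, to 1689, without EGFR-inhibited replicate 1. Among named genes the direction changed once with a call at stake: Dnajc3, an ER chaperone partner, had a log2 fold change of -0.249 after thinning (adjusted p 0.65); the cause was not tested. Of the other named genes, 7 lost their call after thinning, Mmp7, Dclk1, Bop1, Ier2 and Pdia6 among them, and 124 were unchanged. The rest of the 194 genes eligible to be named fell under the low-count filter after thinning, so their calls were not checked there. Of the list counts of the first comparison, 26 moved by over 1.5 times after thinning and 26 did not. In the test against a log2 change of 1, 19 list counts moved and 33 did not. Leaving out libraries in the 3 other comparisons, gene by gene, was added after seeing the data.

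The control and triple-inhibited libraries differ in library set as well as treatment, and the set cannot be told apart from it. EGFR-inhibited replicates 2 and 3 held 158135 and 228954 counts, and hormone genes such as Pyy and Nts were below what the depths of these libraries can compare. With upper-quartile factors the median over all genes against EGFR inhibition was -0.121. p-values rest on 3 libraries a group.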
